A study of Mus musculus with 16 samples.

Results

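The heat shock proteins and cochaperones of mouse skeletal muscle were followed through 4 groups of RNA sequencing libraries. The set held the 79 rows, of 55487 in the gene table, whose symbol belongs to the HSP70 and HSP110 genes (Hspa and Hsph1, 14 genes), HSP90 (3), the small heat shock proteins (Hspb, 8), the mitochondrial chaperonin and its cochaperonin (3), the J-domain proteins of class A (Dnaja, 4), class B (Dnajb, 13) and class C (Dnajc, 28), or the BAG cochaperones (Bag, 6). Genes entered the set by symbol and not by any measured value, though earlier results of these data were known when the set was chosen. Male C57BL/6J mice, 2 to 6 months old, carried either a denervation (DEN, a piece of the sciatic nerve of 1 hind limb cut out) or a sham operation in which the nerve was only located, and muscle was taken 21 days later. DEN fibers and sham fibers were myofibers freed from the extensor digitorum longus (EDL) by digestion with collagenase and put into lysis reagent without culture. DEN whole muscle and sham whole muscle were undigested tibialis anterior (TA) with all its cell types. Each group had 4 libraries, 16 in all, and every mouse was otherwise unmodified. The comparison of fibers with whole muscle is therefore also one of EDL with TA and of digested with undigested tissue, which cannot be told apart. The sources used here do not say whether EDL and TA libraries came from the same animals.

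Molecular chaperones bind proteins that are not yet folded or have lost their fold. HSP70 takes up such clients with the help of J-domain proteins, which start its ATP cycle, and is emptied by nucleotide exchange factors, among them HSP110 and the BAG proteins, while HSP90 matures kinases and steroid receptors and small heat shock proteins hold clients without using ATP. Some members are made at all times and others are switched on by heat shock factor 1 within minutes of heat, oxidation or other protein damage. In muscle, small heat shock proteins and BAG3 are best known from the Z-disc, where they serve the turnover of stretched and damaged sarcomere proteins.

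Libraries held 47570214 to 62297405 counts. Muscle fiber markers were high in all groups, with a summed level of 62530 to 83350 normalised CPM in DEN fibers, 138000 to 166500 in sham fibers, 85880 to 92490 in DEN whole muscle and 164900 to 186900 in sham whole muscle. Normalised CPM are counts divided by library size and then TMM scaled over the 16 libraries, and all levels below are on this scale unless RPKM is named. Isolated fibers were not free of other cells, as the 6 endothelial markers summed to 294.6 to 471.9 in DEN fibers and 376.3 to 490.8 in sham fibers, against 221.3 to 259.9 in DEN whole muscle and 407.3 to 436.6 in sham whole muscle. The 3 adipocyte markers were near 0 in fibers, at 0.12 to 2.22 after DEN and 0 to 0.381 after sham, against 1.99 to 16.5 in DEN whole muscle and 1.73 to 19.4 in sham whole muscle. The 9 macrophage markers summed to 100.6 to 141.5 in DEN fibers and 29.8 to 58.8 in sham fibers, and to 111.1 to 128.2 in DEN whole muscle and 60.3 to 131.6 in sham whole muscle, and all 9 were called higher in DEN fibers. The 7 Schwann cell markers summed to 9.21 to 25.9 in DEN fibers and 84.8 to 148.1 in sham fibers, and to 12.4 to 16.3 in DEN whole muscle and 26.6 to 38.1 in sham whole muscle. The 7 pericyte and smooth muscle markers summed to 305.0 to 1226 in DEN fibers and 368.1 to 566.1 in sham fibers, with 4 called higher and 0 lower after DEN. In whole muscle they summed to 281.0 to 338.7 after DEN and 481.8 to 547.5 after sham, with all 7 called lower. The 3 tenocyte markers summed to 61.9 to 111.5 in DEN fibers and 12.3 to 54.0 in sham fibers. Tenocyte sums in TA were 47.7 to 102.1 after DEN and 6.99 to 16.7 after sham, with 1 called higher after DEN in fibers and 2 in whole muscle. The 5 erythroid markers summed to 327.4 to 556.3 in DEN fibers and 262.4 to 1484 in sham fibers, highest in sham fibers 1. The 6 fibro-adipogenic progenitor markers summed to 844.5 to 1151 and 491.0 to 1791, and the 5 muscle stem cell markers to 35.4 to 54.0 and 22.3 to 53.1. Sham fibers 3 was the highest sham fiber library for both of these sets. In whole muscle the erythroid sums were 305.9 to 432.4 after DEN and 314.6 to 960.6 after sham. Progenitor sums there were 492.9 to 1537 and 606.1 to 964.8, and stem cell sums 11.2 to 15.95 and 12.4 to 15.5. Of all genes tested, 27.1% were called higher and 27% lower after DEN in fibers, and 34% and 32.2% in whole muscle. The part of the marked cell types in the chaperone levels was not tested. In such bulk samples, fewer cells of a type and less RNA per cell cannot be told apart. Scaling to the total count instead of TMM would put the median gene at 0.49 (fibers) and 0.45 (whole muscle) on the log2 scale of DEN over sham, in place of 0.01 and 0.02 with TMM, so each change below is relative to the bulk of genes.

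On this scale the pool of chaperone transcripts was highest in sham fibers. The 79 members summed to 14880 to 15430 normalised CPM in DEN fibers and 17350 to 23600 in sham fibers, and to 12030 to 13060 in DEN whole muscle and 7523 to 7761 in sham whole muscle. The summed level was thus lower after DEN than after sham in every fiber library, and higher after DEN in every whole muscle library, but with scaling to total counts the fiber means were 18380 ± 1151 after DEN and 17000 ± 2135 after sham (SD, n = 4 each). The makeup of the pool differed as well. The near-identical pair Hspa1a and Hspa1b, the heat-inducible HSP70, took 19.3% ± 2.9 of the pool in DEN fibers and 34.9% ± 4.3 in sham fibers, but 0.207% ± 0.026 in DEN whole muscle and 0.140% ± 0.024 in sham whole muscle (SD, n = 4 each). Small heat shock proteins held a share of 26.4% ± 2.5 in DEN fibers against one of 12.6% ± 1.2 in sham fibers, while their share was 36.0% ± 1.1 in DEN whole muscle against 21.3% ± 2.5 in sham whole muscle.

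**Figure D1:**
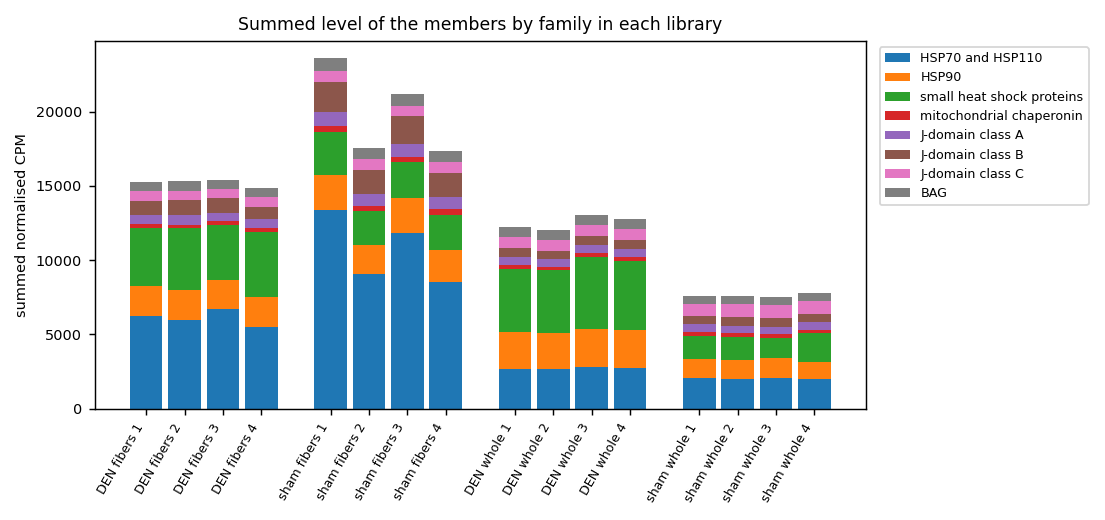
Stacked bars give the summed level of each chaperone family (normalised CPM, linear axis from 0) in each of the 16 libraries, 4 per group. All members together reach 23600 in sham fibers 1 and stay between 7523 and 7761 in sham whole muscle, and the HSP70 and HSP110 part is the widest in sham fibers.

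The first question was which chaperones changed after DEN in fibers and in whole muscle. The labels do not say that libraries of a group are separate animals. The paper describes the fiber libraries as coming from separate animals, and its reporting summary says that its replicates were different mice. The p-values measure the spread between these libraries. Calls rest on edgeR's quasi-likelihood test with a Benjamini-Hochberg adjusted p under 0.05 over all genes tested. In fibers, 71 members could be tested, of which 16 (22.5%) were higher and 30 (42.3%) lower in DEN than in sham, beside 27.1% higher and 27% lower among all 16724 genes tested. In whole muscle, 71 members could be tested, of which 35 (49.3%) were higher and 19 (26.8%) lower in DEN, beside 34% and 32.2% of 16379 genes. The members had a median log2 fold change of -0.11 in fibers, where all genes tested had 0.01, and of 0.16 in whole muscle, where all genes had 0.02. Counted in either direction, 64.8% of the members passed in fibers and 76.1% in whole muscle, beside 54.1% and 66.2% of all genes. The normalised CPM of DEN and sham libraries did not overlap for 42 members in fibers, beside 50.5% of all genes, and for 56 members in whole muscle, beside 61.2%. With total-count scaling the split became 44 higher and 13 lower in fibers and 59 higher and 7 lower in whole muscle, along with 9950 higher and 1494 lower, and 9983 higher and 2273 lower, among all genes. The members left untested in all comparisons were Hspb9, Dnajb7, Dnajb8, Dnajb13, Dnajc5b, Dnajc5g and Dnajc22, none above 0.0751 normalised CPM in any library, and Dnajb8 and Dnajc5b had no count at all. Dnajb3 and Dnajc6 were too low to be tested in some comparisons.

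Of the 70 members tested in both preparations, 10 changed in opposite directions, lower in DEN fibers and higher in DEN whole muscle. They were Hspa1a, Hspa1b, Hsph1, Hsp90aa1, Hspb1, Hspd1, Dnaja1, Dnajb1, Dnajb4 and Bag3, which is 14.3% of these members, beside 1.12% of all genes tested in both (178 of 15913). The DEN comparisons shared no library. This count across settings was added after seeing the data. It stayed between 8 and 12 when any 1 library was left out and under all other settings tried, and Hspa1a, Hspa1b, Hsp90aa1, Dnaja1 and Dnajb1 were in it every time. With scaling to total counts, Hsph1 (0.07), Hspb1 (0.15), Hspd1 (0.00) and Dnajb4 (0.15) were no longer below 0 in fibers on the log2 scale and Bag3 (-0.16) no longer passed, so the fall of these 5 in fibers depends on the scaling. A further 15 members were higher after DEN in both preparations, 15 were lower in both, 1 (Dnajc16) was higher in fibers and lower in whole muscle, 17 passed in only 1 preparation and 12 in neither.

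**Figure D2:**
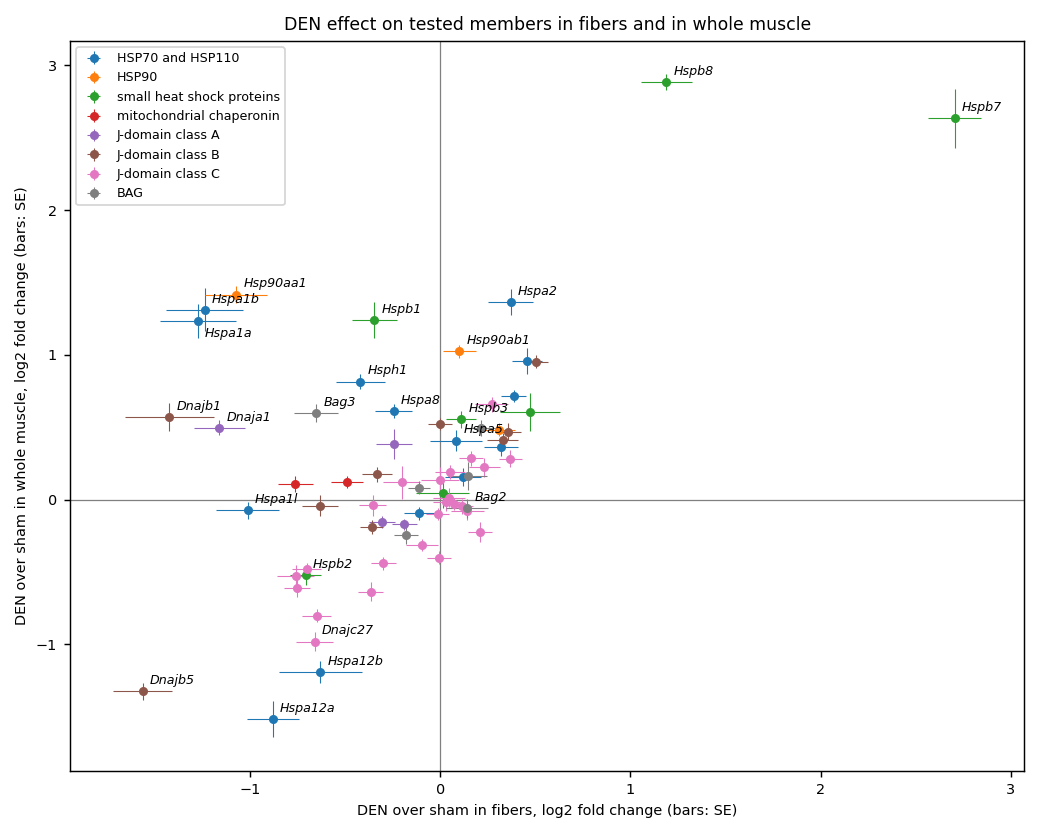
Each point is a tested member (1 is not shown), placed by its log2 fold change of DEN over sham in fibers (x) and in whole muscle (y), with bars of 1 SE and colours for families. Hspa1a, Hspa1b, Hsp90aa1, Dnajb1, Dnaja1, Hspb1, Hsph1 and Bag3 lie in the upper left, Hspb7 and Hspb8 at the upper right, and Dnajb5, Hspa12a and Hspa12b at the lower left.

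Among the HSP70 genes, Hspa1a and Hspa1b lie next to each other on chromosome 17 (GRCm38, GENCODE vM21, minus strand, 34969190 to 34972156 and 34956436 to 34959238). Reads that fit both copies were kept by the aligner at 1 place only, so the split between the copies is uncertain while their sum is not. The promoters printed here are the 150 bases before the RefSeq start (GRCm38.p6), shown 5′ to 3′. Capitals mark a 2-unit heat shock element, GAANNTTC or TTCNNGAA, the short form of the motif that heat shock factors bind. Printed are these copies and the other members with opposite DEN effects that held the element. Dnajb1, Dnajb4, Bag3 and Hspd1 moved the same way, held no match and are not printed. The Dnaja1 window lies wholly inside its GENCODE gene (start 40722150) and the Hsph1 window partly (end 149636376). The printed windows of Hspa1a and Hspa1b differ at 1 of 150 bases.
Hspa1a, chr17:34972157-34972306, minus strand: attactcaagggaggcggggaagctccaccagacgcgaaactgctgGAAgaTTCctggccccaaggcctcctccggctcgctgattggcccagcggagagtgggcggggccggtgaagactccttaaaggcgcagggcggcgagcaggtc
Hspa1b, chr17:34959239-34959388, minus strand: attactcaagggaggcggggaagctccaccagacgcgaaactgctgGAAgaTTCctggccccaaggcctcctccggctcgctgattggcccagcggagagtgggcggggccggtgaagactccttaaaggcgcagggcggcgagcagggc
Hsph1, chr5:149636337-149636486, minus strand: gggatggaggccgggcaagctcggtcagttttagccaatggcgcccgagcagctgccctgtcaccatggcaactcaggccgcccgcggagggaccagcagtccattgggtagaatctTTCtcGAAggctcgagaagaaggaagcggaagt
Hspb1, chr5:135887769-135887918, plus strand: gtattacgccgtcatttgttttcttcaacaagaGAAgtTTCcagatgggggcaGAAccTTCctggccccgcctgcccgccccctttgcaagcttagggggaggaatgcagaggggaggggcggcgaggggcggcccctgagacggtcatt
Dnaja1, chr4:40722318-40722467, plus strand: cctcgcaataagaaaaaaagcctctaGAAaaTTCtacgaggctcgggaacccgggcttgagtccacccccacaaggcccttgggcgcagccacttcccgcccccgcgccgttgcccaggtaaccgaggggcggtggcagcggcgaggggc

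These letters were searched in the 250 bases before the start of 63 members with a RefSeq promoter. Both forms read the same on the 2 strands. A 2-unit element was present in 10 of the 63 (15.9%) and in 12.9% of the 27025 genes with such a promoter. Of the 10 members with opposite DEN effects, 9 had a promoter and 5 of those held the motif (Hspa1a, Hspa1b, Hsph1, Hspb1 and Dnaja1), against 5 of the other 54 members (Dnajb6, Dnajc10, Dnajc27, Hspb3 and Hspe1). The 10 were picked from these data, and the matches of Hspa1a and Hspa1b lie in near-identical windows and are not separate. Whether the motif goes with the opposite effects was not tested. The 3-unit form, GAANNTTCNNGAA or TTCNNGAANNTTC, was found for Hspe1 and Dnajb6, 3.17% of members against 0.4% of all genes. Hsp90aa1 was not matched, and the windows of Dnajb1, Dnajb4, Bag3 and Hspd1 held no match, which says only that these letters are not within 250 bases.

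Hspa1a stood at 1498, 1483, 1770 and 1183 normalised CPM in DEN fibers, against 4761, 2828, 4074 and 2755 in sham fibers. TA levels of Hspa1a were 14.5, 12.6, 14.0 and 16.7 after DEN, against 7.14, 4.90, 6.37 and 6.02 after sham. Neither pair of groups overlapped, and sham fibers 1 and 3 were the highest libraries. Sham fibers 1 also had the highest erythroid sum, and sham fibers 3 the highest fibro-adipogenic progenitor sum. What part these cells have was not tested. The log2 fold change of Hspa1a was -1.28 ± 0.20 in fibers (SE, adjusted p = 0.00048) and 1.23 ± 0.12 in whole muscle (adjusted p = 4.5e-06). Hspa1b gave -1.24 ± 0.20 and 1.31 ± 0.15 (adjusted p = 0.00062 and 1.9e-05), and the 2 copies counted as 1 gene gave -1.26 and 1.27 (adjusted p = 0.00062 and 6.2e-06). Hspa1l, a related HSP70 known from testis that starts beside Hspa1a on the other strand, was lower in DEN fibers (94.6 to 116, against 170 to 289 in sham fibers, log2 fold change -1.01 ± 0.17, adjusted p = 0.00062). Whole muscle had 25.5 to 29.1 after DEN and 27.5 to 31.2 after sham (-0.07 ± 0.06, adjusted p = 0.29), or at 0.36 with total-count scaling.

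The constitutive cytosolic HSP70, Hspa8, stood at 1603, 1473, 1582 and 1612 in DEN fibers, against 2099, 1719, 1983 and 1663 in sham fibers (log2 fold change -0.25 ± 0.10, adjusted p = 0.06). It did not pass at this threshold, but was called lower by the DESeq2 Wald test (adjusted p = 0.0095), in the fit over all 16 libraries (adjusted p = 0.0079) and without sham fibers 4 (adjusted p = 0.039). It stood at 0.25 with total-count scaling. In DEN whole muscle Hspa8 rose to 1338 to 1486, against 876 to 958 in sham (0.61 ± 0.05, adjusted p = 1e-06). HSP110 (Hsph1), an exchange factor of HSP70, had 302 to 359 in DEN fibers and 350 to 541 in sham fibers, with 1 overlap between the groups (-0.42 ± 0.13, adjusted p = 0.019, or 0.053 without DEN fibers 4). In whole muscle its groups were far apart, at 146, 149, 146 and 148 after DEN against 87.3, 83.8, 88.7 and 73.1 after sham (0.82 ± 0.05, adjusted p = 3.1e-07). The 2 further HSP110 genes, named to complete the family, were higher after DEN in both preparations, Hspa4 by 0.39 in fibers and 0.72 in whole muscle and Hspa4l by 0.46 and 0.96.

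Hspa5 (BiP), the HSP70 of the endoplasmic reticulum (ER), showed no such opposition. It stood at 385 to 498 in DEN fibers and 333 to 511 in sham fibers (log2 fold change 0.08 ± 0.14, adjusted p = 0.64), and at 229 to 269 in DEN whole muscle against 174 to 206 in sham (0.41 ± 0.07, adjusted p = 0.00046). Its ER partner Hsp90b1 (GRP94) was higher after DEN in both, at 132 to 154 in DEN fibers against 107 to 134 in sham fibers (0.31 ± 0.09, adjusted p = 0.012), and at 111 to 121 in DEN whole muscle against 79.7 to 87.4 in sham (0.48 ± 0.05, adjusted p = 4.5e-06). Dnajb9, an ER J-domain protein, was lower in DEN fibers (44.4 to 50.2, against 61.3 to 83.4 in sham) at -0.63 ± 0.09 (adjusted p = 0.00033). With total-count scaling it stood at -0.14 (adjusted p = 0.24) there. In whole muscle Dnajb9 was at -0.04 ± 0.07 (adjusted p = 0.63), or 0.39 with total-count scaling. Dnajc3, an inhibitor of the ER stress kinases that also acts as an ER cochaperone, was at -0.10 ± 0.09 in fibers and -0.31 ± 0.04 in whole muscle (adjusted p = 0.37 and 6.8e-05), and turned to 0.39 and 0.12 with total-count scaling. The ER members are shown by their own motif, the ER stress element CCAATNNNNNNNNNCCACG, read on either strand and put in capitals without its spacer. It was found in the windows of 3 members (Hspa5, Hsp90b1 and Dnajc3), 4.76% of members against 0.122% of all genes. Part of the printed Hspa5 window, with its marked element, lies inside its GENCODE gene (start 34771970), as does part of the Hsp90b1 window (end 86705509).
Hspa5, chr2:34771940-34772089, plus strand: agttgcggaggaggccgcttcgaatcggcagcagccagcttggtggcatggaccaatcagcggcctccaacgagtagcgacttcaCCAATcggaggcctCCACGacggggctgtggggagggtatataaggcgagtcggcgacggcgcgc
Hsp90b1, chr10:86705445-86705594, minus strand: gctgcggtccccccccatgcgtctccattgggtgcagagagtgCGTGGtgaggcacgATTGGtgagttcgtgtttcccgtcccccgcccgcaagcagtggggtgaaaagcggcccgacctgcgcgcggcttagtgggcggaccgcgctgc

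Mitochondrial and other HSP70 genes filled out the family. Hspa9 (mortalin), the HSP70 of the mitochondrial matrix, stood at 409 to 474 in DEN fibers and 430 to 527 in sham fibers, and at 538 to 588 in DEN whole muscle and 593 to 619 in sham whole muscle, with log2 fold changes of -0.11 ± 0.08 and -0.10 ± 0.04 (adjusted p = 0.29 and 0.077) that became 0.38 and 0.33 with total-count scaling. Hspa2, best known from testis, was higher after DEN in whole muscle (21.9 to 25.3, against 7.89 to 10.6 in sham, 1.36 ± 0.09, adjusted p = 3e-07). In fibers Hspa2 stood at 25.6 to 28.0 after DEN and 16.9 to 26.5 after sham (0.37 ± 0.12, adjusted p = 0.025), and the adjusted p was 0.05 to 0.059 without DEN fibers 1 or 4 or sham fibers 1 or 4. The distant relatives Hspa12a and Hspa12b fell in both. Hspa12a stood at 5.48 to 6.70 in DEN fibers against 8.27 to 12.6 in sham fibers, and at 3.11 to 3.44 in DEN whole muscle against 8.04 to 11.9 in sham (-0.88 ± 0.14 and -1.52 ± 0.12). With total-count scaling neither passed in fibers, where Hspa12a was at -0.39 (adjusted p = 0.054) and Hspa12b at -0.13 (adjusted p = 0.63). Hspa12b, which is known from endothelium, was at -0.63 ± 0.22 in fibers and -1.19 ± 0.08 in whole muscle (adjusted p = 0.033 and 2.6e-07), and its fiber call ended without any 1 of 5 libraries (DEN fibers 1, 2 and 4, sham fibers 1 and 3, adjusted p = 0.074 to 0.086). The 6 endothelial markers moved the same way in whole muscle, where 5 of 6 were lower after DEN with a median of -0.80, beside 32.2% of all genes. In fibers 2 of 6 were lower with a median of -0.32, beside 27% of all genes. The part of endothelial cells in the fall of Hspa12b was not tested.

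The cytosolic HSP90 pair differed in fibers. Hsp90aa1, the inducible form, stood at 292, 277, 314 and 213 in DEN fibers, against 682, 458, 677 and 498 in sham fibers. Whole muscle had 94.4, 89.4, 94.3 and 95.0 after DEN, against 36.9, 30.6, 35.9 and 35.6 after sham. The groups did not overlap in either preparation, and the log2 fold changes were -1.07 ± 0.16 and 1.42 ± 0.06 (adjusted p = 0.00039 and 1.3e-08). Hsp90ab1, the constitutive form, stood at 1504 to 1684 in DEN fibers and 1336 to 1573 in sham fibers (0.10 ± 0.09, adjusted p = 0.36). In DEN whole muscle Hsp90ab1 rose to 2283, 2244, 2318 and 2299, against 1104, 1119, 1181 and 1069 in sham (1.02 ± 0.04, adjusted p = 1.4e-08).

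J-domain proteins of classes A and B, the partners that deliver clients to HSP70, held members that were opposed, that fell in both preparations and that rose in both. In fibers 0 of 4 class A members were higher and 3 lower after DEN, and 3 of 9 in class B higher and 5 lower. In whole muscle these counts were 2 and 2 of 4, and 7 and 2 of 10. Among all genes 27.1% were higher and 27% lower in fibers, and 34% and 32.2% in whole muscle. Dnajb1 (HSP40) stood at 406, 425, 442 and 217 in DEN fibers, against 1225, 777, 1152 and 864 in sham fibers (log2 fold change -1.43 ± 0.23, adjusted p = 0.00062). In whole muscle it stood at 8.38, 10.8, 9.28 and 10.7 after DEN, against 6.35, 5.97, 7.41 and 6.47 after sham (0.57 ± 0.10, adjusted p = 0.00039). Dnaja1 had 105 to 132 in DEN fibers against 209 to 318 in sham fibers, and 58.0 to 59.5 in DEN whole muscle against 38.0 to 44.4 in sham (-1.16 ± 0.13 and 0.50 ± 0.05, adjusted p = 7.3e-05 and 9.1e-06). Dnajb4, of the same class as Dnajb1, moved less, by -0.33 ± 0.08 in fibers and 0.18 ± 0.05 in whole muscle (adjusted p = 0.0052 and 0.01). Dnaja4 was higher in DEN whole muscle (0.39 ± 0.10, adjusted p = 0.007) and at -0.24 ± 0.09 in fibers (adjusted p = 0.051). In fibers it was called lower by the DESeq2 Wald test (adjusted p = 0.028) and in the fit over all 16 libraries (adjusted p = 0.047). It had an adjusted p of 0.038 without sham fibers 3 and 0.049 without sham fibers 4 and turned to 0.25 with total-count scaling.

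Dnajb5, a class B member known in muscle for binding the histone deacetylase HDAC4, fell in both preparations. It stood at 82.6, 99.0, 72.7 and 103 in DEN fibers, against 234, 336, 219 and 272 in sham fibers, and at 78.7, 78.1, 74.4 and 76.5 in DEN whole muscle, against 175, 206, 204 and 183 in sham. The log2 fold changes were -1.56 ± 0.15 and -1.33 ± 0.06 (adjusted p = 2.8e-05 and 1.3e-08), the lowest of all members in fibers, and their difference was not called (-0.25 ± 0.17, adjusted p = 0.33). Dnajb6, whose mutations cause a limb-girdle muscular dystrophy in humans, rose in both, to 111 to 122 in DEN fibers against 76.8 to 86.1 in sham fibers, and to 161 to 182 in DEN whole muscle against 86.7 to 90.5 in sham (0.51 ± 0.06 and 0.95 ± 0.05, adjusted p = 8.7e-05 and 3.2e-08). Dnajb12, anchored in the ER membrane, was lower in both at -0.36 ± 0.06 and -0.19 ± 0.05, or 0.13 and 0.24 with total-count scaling.

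Class C is the largest group and holds J-domain proteins of many compartments. In fibers 4 of its 25 tested members were higher and 8 lower after DEN, with a median log2 fold change of -0.01. Among all genes 27.1% were higher and 27% lower there. In whole muscle 5 of 24 were higher and 11 lower, with a median of -0.06, beside 34% and 32.2% of all genes. Dnajc27, a small GTPase with a J domain, fell in both, to 39.1 to 51.0 in DEN fibers against 60.8 to 76.6 in sham fibers and to 54.8 to 61.8 in DEN whole muscle against 103 to 127 in sham (-0.66 ± 0.10 and -0.98 ± 0.06). Its fiber call ended with total-count scaling (-0.17, adjusted p = 0.088). Dnajc2, a ribosome-associated cochaperone, was higher after DEN in both (0.27 ± 0.09 and 0.66 ± 0.05, adjusted p = 0.023 and 9.9e-07), and its fiber call ended without DEN fibers 1 or 4 or sham fibers 2 or 3 (adjusted p = 0.05 to 0.067). Dnajc10, an ER disulfide reductase, was at -0.01 ± 0.06 in fibers and -0.40 ± 0.04 in whole muscle (adjusted p = 0.93 and 1.6e-05), or 0.48 and 0.03 with total-count scaling. Dnajc16 was at 0.21 ± 0.06 and -0.22 ± 0.07 (adjusted p = 0.018 and 0.013), but its fiber call ended without DEN fibers 2 (adjusted p = 0.055) and its whole muscle value turned to 0.20 with total-count scaling. Dnajc7 was at -0.01 ± 0.06 and -0.10 ± 0.04 (adjusted p = 0.88 and 0.048), or 0.48 and 0.33 with total-count scaling, and lost its whole muscle call without DEN whole muscle 2, 3 or 4 or sham whole muscle 3 or 4 (adjusted p = 0.058 to 0.13), with no filter on low counts (0.13) and in the fit over all 16 libraries (0.1).

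BAG3, which links HSP70 to the small heat shock proteins and to autophagy at the Z-disc, followed the inducible members. Bag3 stood at 289, 333, 298 and 280 in DEN fibers, against 570, 459, 477 and 388 in sham fibers. Bag3 in whole muscle stood at 219, 223, 238 and 224 after DEN, against 144, 143, 142 and 165 after sham. There was no overlap in either preparation on this scale, and the log2 fold changes were -0.65 ± 0.12 and 0.60 ± 0.06 (adjusted p = 0.00099 and 7.5e-06). With total-count scaling the fiber value of Bag3 was -0.16 (adjusted p = 0.2). Bag1, the founding member of the family, was higher after DEN in whole muscle (168 to 190, against 117 to 132 in sham, 0.49 ± 0.06, adjusted p = 2e-05). In fibers it stood at 117 to 128 after DEN and 96.0 to 123 after sham (0.22 ± 0.08, adjusted p = 0.047), a call that ended without any 1 of 6 libraries (DEN fibers 1, 2 and 4, sham fibers 1 to 3, adjusted p = 0.084 to 0.12), with DESeq2 size factors (0.066) and by the DESeq2 Wald test (0.052). Bag2, an inhibitor of the ubiquitin ligase CHIP, was at 0.14 ± 0.11 and -0.06 ± 0.07 (adjusted p = 0.31 and 0.45), or 0.37 in whole muscle with total-count scaling.

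**Figure D3:**
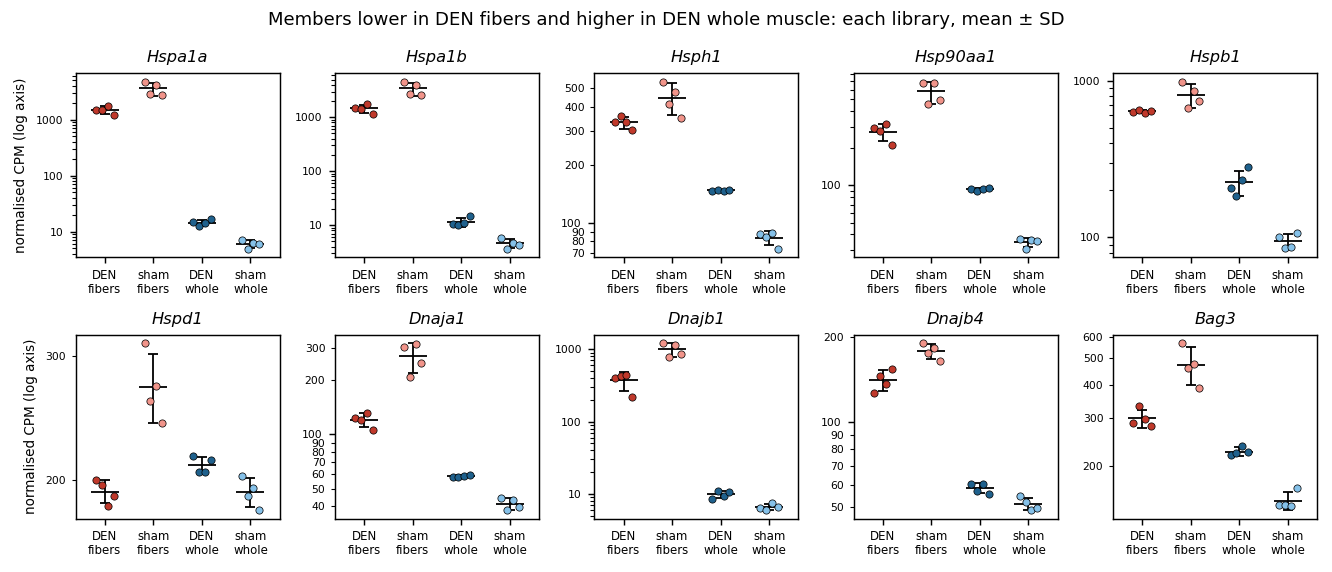
Points give the normalised CPM (log axis) of each library for the 10 members lower in DEN fibers and higher in DEN whole muscle, and bars give the mean ± SD of the 4 libraries of a group. Hspa1a lies between 1183 and 1770 in DEN fibers and between 2755 and 4761 in sham fibers, against 12.6 to 16.7 in DEN whole muscle and 4.90 to 7.14 in sham whole muscle.

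Small heat shock proteins gave the largest rises. Hspb7, a small heat shock protein of heart and skeletal muscle that binds filamin C, stood at 1225, 1341, 1159 and 1546 in DEN fibers, against 232, 224, 188 and 167 in sham fibers. In whole muscle it stood at 1459, 1307, 1590 and 1447 after DEN, against 200, 238, 154 and 336 after sham. Every DEN library was above every sham library in both preparations, by log2 fold changes of 2.71 ± 0.14 in fibers and 2.63 ± 0.20 in whole muscle (adjusted p = 5.6e-07 and 9.7e-07). The DEN effect in fibers minus that in whole muscle was 0.06 ± 0.25 on the log2 scale (adjusted p = 0.91, 95% interval -0.43 to 0.55). Hspb8, the partner of BAG3, rose in both but not equally. It stood at 1151, 1056, 1117 and 1049 in DEN fibers, against 577, 539, 376 and 435 in sham fibers, and at 1599, 1728, 1831 and 1800 in DEN whole muscle, against 227, 237, 247 and 226 in sham. The log2 fold changes were 1.19 ± 0.13 and 2.88 ± 0.06 (adjusted p = 5.7e-05 and 1.2e-10), and the value in whole muscle was the largest of all members there. Neither promoter held a 2-unit heat shock element in the 250 bases before the start, and they are printed with no capitals. Those above were printed for holding the element, so the contrast comes from the choice of windows.
Hspb7, chr4:141420629-141420778, plus strand: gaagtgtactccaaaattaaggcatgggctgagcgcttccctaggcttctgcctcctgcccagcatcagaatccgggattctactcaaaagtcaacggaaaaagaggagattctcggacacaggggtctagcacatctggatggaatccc
Hspb8, chr5:116422865-116423014, minus strand: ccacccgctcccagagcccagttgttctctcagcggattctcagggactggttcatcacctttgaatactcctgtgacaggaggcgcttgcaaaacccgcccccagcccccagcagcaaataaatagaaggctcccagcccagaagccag

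Hspb1 (HSP25 of the mouse), which guards the actin cytoskeleton, stood at 629, 653, 622 and 641 in DEN fibers, against 986, 664, 858 and 742 in sham fibers. The lowest sham library was only just above the highest DEN library, and the call (-0.35 ± 0.12, adjusted p = 0.03) ended without any 1 of 6 libraries (all DEN fibers, sham fibers 1 and 3, adjusted p = 0.053 to 0.07) and with no filter on low counts (0.052). In whole muscle Hspb1 stood at 206, 183, 231 and 280 after DEN, against 100, 85.1, 87.4 and 106 after sham (1.24 ± 0.12, adjusted p = 6.8e-06). Hspb2, which is expressed mainly in heart and skeletal muscle, fell in both, to 29.7 to 37.2 in DEN fibers against 53.7 to 62.3 in sham fibers, and to 36.9 to 39.3 in DEN whole muscle against 50.7 to 61.8 in sham (-0.71 ± 0.08 and -0.52 ± 0.07). Its whole muscle call ended with total-count scaling (-0.09, adjusted p = 0.22). Its partner Hspb3 was at 0.11 ± 0.08 in fibers (adjusted p = 0.28) and higher in DEN whole muscle (22.1 to 25.4, against 15.4 to 17.0 in sham, 0.55 ± 0.06, adjusted p = 1.3e-05). Hspb6 (HSP20) overlapped between groups in every comparison, at 726 to 1109 in DEN fibers, 818 to 976 in sham fibers, 939 to 1143 in DEN whole muscle and 847 to 1178 in sham whole muscle, and passed no test with TMM. With total-count scaling it was called higher after DEN, by 0.50 in fibers (adjusted p = 0.0028) and 0.47 in whole muscle (adjusted p = 0.0017). Hspb11 was low, at 1.75 to 2.27 in DEN fibers and 1.14 to 1.77 in sham fibers, and at 1.86 to 2.42 in DEN whole muscle and 1.23 to 1.49 in sham whole muscle, where it was called (0.61 ± 0.13, adjusted p = 0.0019). Its fiber value was 0.47 ± 0.16 (adjusted p = 0.029), or an adjusted p of 0.052 to 0.083 without DEN fibers 1, 2 or 4 or sham fibers 1 or 2.

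**Figure D4:**
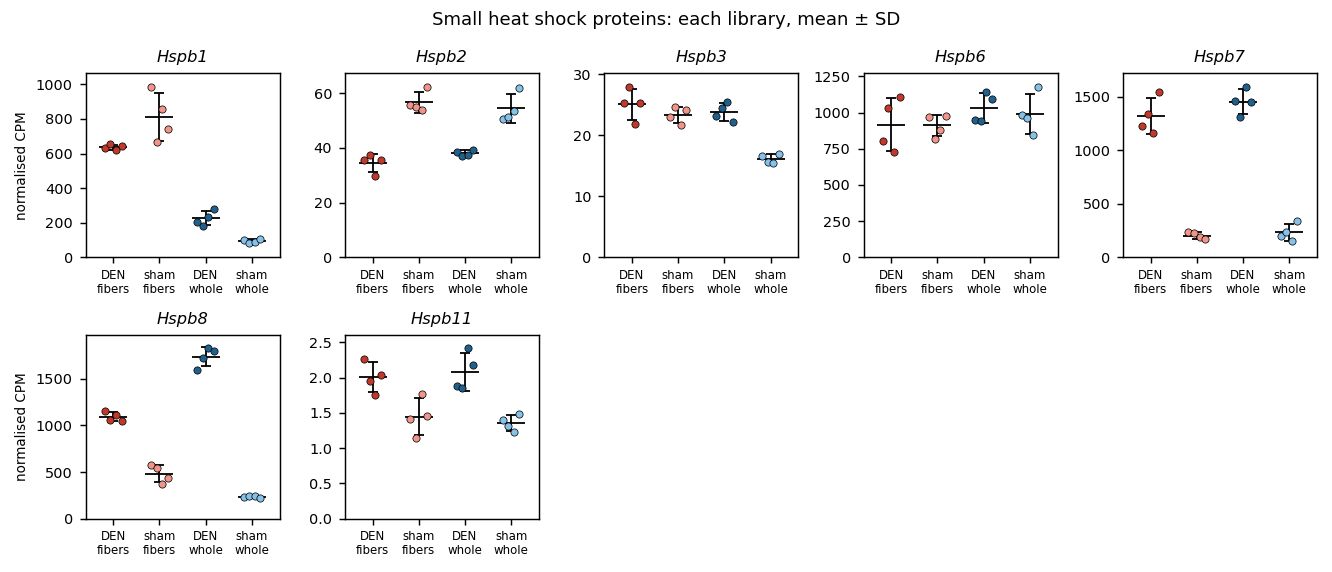
Points give the normalised CPM (linear axis from 0) of each library for the 7 small heat shock proteins that were tested, and bars give the mean ± SD of 4 libraries. Hspb7 is at 1159 or more in every DEN library and at 336 or less in every sham library, while the 4 groups of Hspb6 overlap.

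The mitochondrial chaperonin Hspd1 (HSP60) and its lid Hspe1 (HSP10) overlap head to head on chromosome 1. Hspd1 stood at 184 to 200 in DEN fibers against 241 to 313 in sham fibers (log2 fold change -0.49 ± 0.09, adjusted p = 0.00091). In whole muscle it stood at 205 to 216 after DEN and 181 to 203 after sham (0.12 ± 0.04, adjusted p = 0.031), a call that ended without DEN whole muscle 1 or 4 or sham whole muscle 2 or 3 (adjusted p = 0.072 to 0.15), with DESeq2 size factors (0.052), with no filter on low counts (0.06) and in the fit over all 16 libraries (0.11). Hspe1 stood at 50.5 to 57.7 in DEN fibers against 79.1 to 105 in sham fibers (-0.76 ± 0.09, adjusted p = 9.4e-05). In whole muscle it was at 0.11 ± 0.05 (adjusted p = 0.1), and at an adjusted p of 0.032 without DEN whole muscle 2 and 0.021 without sham whole muscle 4.

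The second question was whether these DEN effects differed between fibers and whole muscle. The test of the difference itself, the interaction over the 16 libraries, called 3 of 72 members (4.17%) with a higher effect in fibers and 28 (38.9%) with a lower one, beside 7.09% and 11.8% of 17497 genes, or 43.1% of the members and 18.9% of all genes in either direction. All 10 members with opposite effects were among the 28. They were picked from these same libraries for effects of opposite sign, so this was nearly fixed in advance and is no separate support. The differences on the log2 scale were -2.56 ± 0.27 for Hspa1b, -2.52 ± 0.25 for Hspa1a, -2.50 ± 0.18 for Hsp90aa1, -2.01 ± 0.28 for Dnajb1, -1.67 ± 0.15 for Dnaja1, -1.60 ± 0.18 for Hspb1, -1.25 ± 0.15 for Hsph1 and -1.27 ± 0.13 for Bag3. Hspb8 belonged to them by the size of its rise and not by its direction (-1.71 ± 0.15, adjusted p = 1.8e-06). Hsp90ab1 (-0.94 ± 0.09), Hspa8 (-0.87 ± 0.10) and Hspa2 (-1.01 ± 0.16) had larger effects in whole muscle and were called in this test as well. Hspa5, Hsp90b1, Hspb2 and Dnajb5 were not called here (adjusted p = 0.16, 0.19, 0.2 and 0.33). The members with a higher effect in fibers were Hspa12a (0.62 ± 0.19), Dnajc16 (0.42 ± 0.09) and Dnajc10 (0.38 ± 0.07), and Hspa12a lost its call without DEN fibers 3 or DEN whole muscle 3 or 4 (adjusted p = 0.053 to 0.07).

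The third question was how fibers differed from whole muscle within each operation. After sham, 28 of 70 members (40%) were higher in fibers and 17 (24.3%) lower, beside 25.5% and 23.2% of 16005 genes. After DEN, 27 of 71 (38%) were higher and 24 (33.8%) lower, beside 30.2% and 26.4% of 16856 genes. In either direction this came to 64.3% of the members after sham and 71.8% after DEN, beside 48.8% and 56.6% of all genes, and the libraries of fibers and whole muscle did not overlap for 44 members after sham (45.2% of all genes) and 50 after DEN (53.4% of all genes). A few inducible members stood far above the rest. Hspa1a averaged 3604 ± 980 normalised CPM in sham fibers and 6.11 ± 0.93 in sham whole muscle (SD, n = 4 each), a log2 difference of 9.19 ± 0.26 (adjusted p = 2.3e-08), and 1483 ± 240 in DEN fibers and 14.5 ± 1.7 in DEN whole muscle, a log2 difference of 6.72 ± 0.16 (adjusted p = 7.2e-09). The differences after sham and after DEN were 9.54 and 7.03 for Hspa1b, 7.24 and 5.28 for Dnajb1, 4.04 and 1.59 for Hsp90aa1, 3.08 and 1.53 for Hspb1, 2.91 and 2.01 for Hspa1l, 2.69 and 1.07 for Dnaja1, and 2.41 and 1.21 for Hsph1, all called. Bag3 differed by 1.66 after sham and by 0.44 after DEN. Against these, Hspb6 and Hspb7 differed by -0.14 ± 0.11 and -0.21 ± 0.22 after sham and by -0.13 ± 0.13 and -0.10 ± 0.09 after DEN, with no call. The members lower in fibers after both operations included Hspa9 (-0.37 and -0.35), Dnajc14 (-0.71 and -0.56), Dnajc27 (-0.73 and -0.37), Dnajc7 (-0.50 and -0.37) and Dnajb12 (-0.44 and -0.57). Hspb8 and Hsp90ab1 were higher in fibers after sham (1.02 and 0.40) and lower in fibers after DEN (-0.63 and -0.49).

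**Figure D5:**
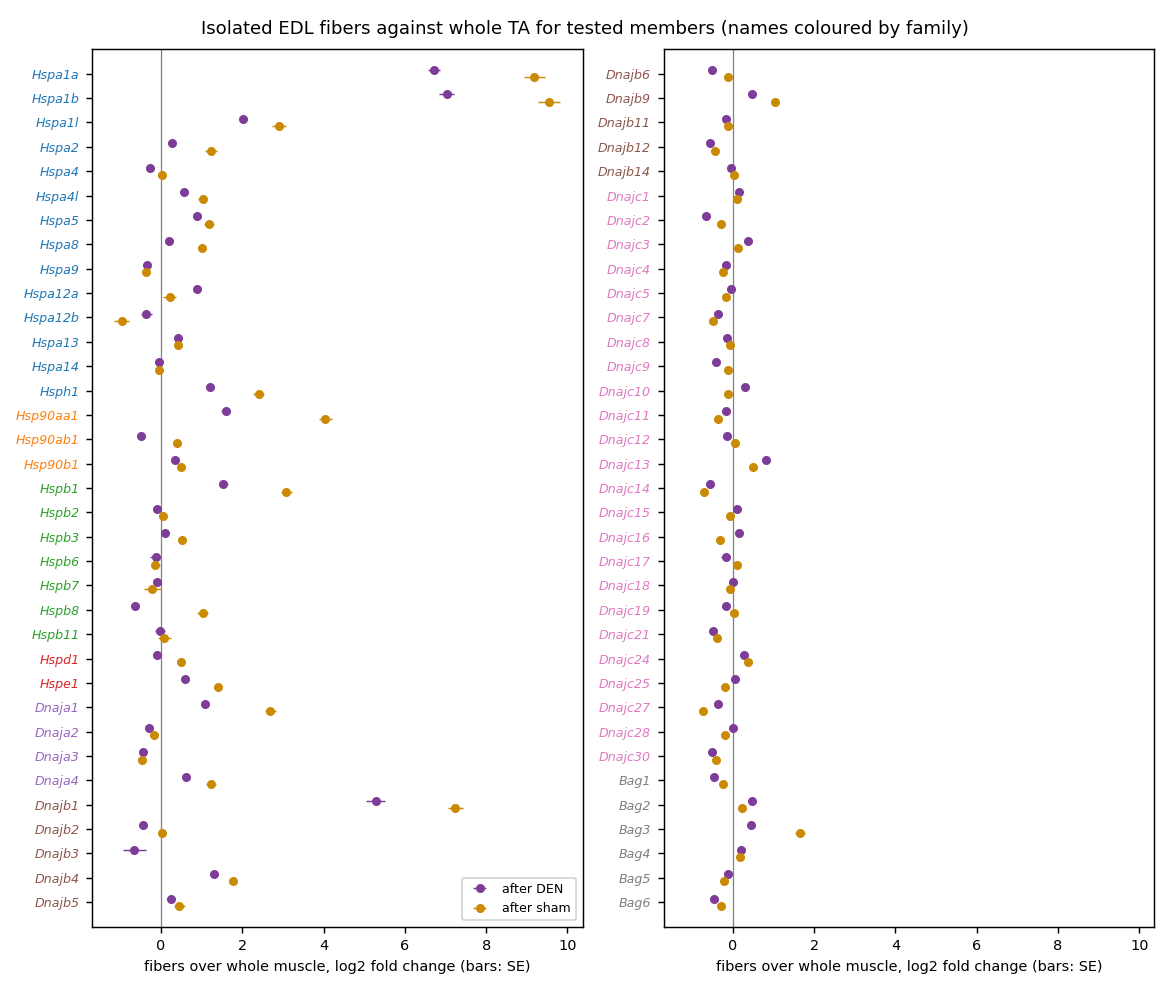
Each row is a tested member (1 is not shown), listed by family from the HSP70 genes down to the BAG genes, with the log2 fold change of fibers over whole muscle after DEN (purple) and after sham (ochre) and bars of 1 SE. Hspa1a, Hspa1b and Dnajb1 lie between 5 and 10 on this scale, and most class C members lie within 1 of 0.

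Levels between genes were compared in RPKM, which is per length. RPKM is scaled to the library total without TMM, so it serves here only to order genes within a group and not to compare groups. In sham fibers, Hspa1b (1048) and Hspa1a (1034) headed the members, followed by Hspb1 (671), Hsp90ab1 (426) and Hspa8 (371). In DEN fibers, Hspb1 (744), Hspb8 (677), Hsp90ab1 (640), Hspa1b (631) and Hspa1a (606) led, close to each other. In whole muscle the inducible pair did not rank among the first, and the order was Hspb8 (1017), Hsp90ab1 (869), Hspb7 (597) and Hspb6 (510) after DEN, against Hspb6 (368), Hsp90ab1 (317), Hspa8 (181) and Hspa9 (120) after sham.

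Genes around the chaperones gave the setting. Counts after DEN in these lists stand beside 27.1% of all genes higher and 27% lower in fibers. The shares in whole muscle were 34% and 32.2%. Immediate early genes, which any disturbance of a cell turns on within minutes, moved with the inducible members. All 24 were higher in fibers than in whole muscle after both operations, beside 25.5% of all genes after sham and 30.2% after DEN. Their median log2 fold change was 5.23 after sham and 2.89 after DEN, beside 0.00 and 0.01 for all genes. They summed to 5044 to 5552 normalised CPM in DEN fibers and 11610 to 13950 in sham fibers, and to 715 to 833 in DEN whole muscle and 490 to 672 in sham whole muscle. After DEN, 20 of 24 were lower in fibers and 1 was higher, while 12 were higher and 3 lower in whole muscle. Means of Maff were 26.7 ± 2.0 in DEN fibers against 113 ± 28 in sham fibers (SD, n = 4 each). Those of Fosb were 161 ± 21 in DEN fibers against 594 ± 138 in sham fibers. Junb was lower in DEN fibers (-0.80, adjusted p = 0.00028) and higher in DEN whole muscle (3.50, adjusted p = 1.1e-07). What part the isolation of fibers has in the levels of the inducible chaperones was not tested.

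Of 6 heat shock factors and regulators tested, 2 were higher and 2 lower in DEN fibers, and 4 were higher and 2 lower in DEN whole muscle (medians -0.07 and 0.42). Hsf2, another factor of the family, was higher in both preparations (0.57 and 0.73, adjusted p = 6.5e-05 and 9.8e-08). Hsf1, the main factor of the heat shock response, stood at 38.8 ± 0.1 after DEN against 46.1 ± 2.1 after sham in fibers, while TA had 52.1 ± 0.8 after DEN against 55.5 ± 1.4 after sham, with log2 fold changes of -0.24 and -0.10, or 0.25 and 0.33 with total-count scaling. Its whole muscle call ended with no filter on low counts (adjusted p = 0.13) and in the fit over all 16 libraries (adjusted p = 0.056). Hsf2bp, a binding partner of Hsf2 known from testis, was higher after DEN in both (1.81 and 4.45) at low levels, with group means of 1.75 and 2.78 normalised CPM in DEN fibers and DEN whole muscle and 0.506 and 0.123 in sham fibers and sham whole muscle. Among 9 other known targets of heat shock factors, 4 of which also stand in the list of further cochaperones, 5 were lower and 1 higher in DEN fibers, and 1 was lower and 4 higher in DEN whole muscle, with medians of -0.36 and 0.05. Ubb, a polyubiquitin gene, was lower in DEN fibers (18.4 ± 1.9, against 36.8 ± 2.7 after sham) but did not pass in whole muscle (-0.16, adjusted p = 0.081, or 0.27 with total-count scaling). Cryab (alpha-B-crystallin), the small heat shock protein outside the Hspb symbols, rose in both like Hspb8, to 813 ± 84 in DEN fibers against 540 ± 55 in sham fibers, while whole muscle had 744 ± 62 after DEN against 225 ± 44 after sham (0.60 and 1.72).

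Cochaperones outside the named families were mixed. Of 24 such partners of HSP70 and HSP90, 2 were higher and 8 lower in DEN fibers, and 13 were higher and 7 lower in DEN whole muscle, with medians of -0.07 and 0.14. For this and the lists that follow, the shares of all genes were 27.1% higher and 27% lower in fibers. In whole muscle they were 34% higher and 32.2% lower. Fkbp5, a glucocorticoid-induced partner of HSP90, fell by 0.55 in fibers and by 1.79 in whole muscle on the log2 scale. With total-count scaling its fiber value was -0.08 (adjusted p = 0.72). Fkbp4, which acts on the same receptors, fell by 0.80 and 0.68. Ptges3 (p23) was at -0.38 in fibers and 0.29 in whole muscle, both called, though its fiber value was 0.12 with total-count scaling. The TRiC chaperonin, which folds actin and tubulin, and prefoldin, which feeds it, were mostly higher after DEN, with 9 of 14 higher and 4 lower in fibers and 11 higher and 3 lower in whole muscle (medians 0.30 and 0.53). Cct3, a TRiC subunit, reached 160 ± 5 in DEN fibers against 96.7 ± 3.5 in sham fibers, while whole muscle had 187 ± 3 after DEN against 79.9 ± 2.6 after sham. Of 17 ER chaperones and genes of the unfolded protein response, 9 were higher and 3 lower in fibers and 12 were higher and 1 lower in whole muscle (medians 0.39 and 0.58). Sdf2l1, an ER cochaperone, rose by 1.24 and 1.54 on the log2 scale, while the stress factor Ddit3 was at -1.28 in fibers and 0.04 in whole muscle (adjusted p = 0.00021 and 0.75). Of 10 genes of mitochondrial protein folding, 1 was higher and 2 lower in fibers and 4 were higher and 2 lower in whole muscle. Of 8 genes of chaperone-assisted autophagy at the sarcomere, 1 was higher and 3 lower in fibers and 4 were higher and 4 lower in whole muscle. Synpo2, which works with BAG3, fell by 1.35 and 1.50 on the log2 scale, while Flnc, the filamin C bound by Hspb7, was at 0.59 in fibers (adjusted p = 0.095) and 0.58 in whole muscle (adjusted p = 0.0012).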

How the data were processed

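RNA from 16 libraries (directional kit, polyA selection, single reads of 101 bases) was analysed. Per the methods, the authors demultiplexed with bcl2fastq 2.20.0.422, trimmed with cutadapt 2.1, aligned to GRCm38 with TopHat2 2.1.0, keeping 1 place a read, and counted genes by strand with featureCounts 1.6.5. The deposited table holds raw counts, and the authors' RPM and RPKM columns divide them by library total and by gene length. Counts entered edgeR 4.0.16 (limma 3.58.1, R 4.3.3) after filterByExpr (minimum count 10) and TMM scaling, with a quasi-likelihood test and Benjamini-Hochberg adjustment at 0.05 over all genes tested. Comparisons of 2 groups used their own libraries, and the difference of DEN effects used all 16. The code was tested on simulated data. Alternatives were DESeq2 1.42.0, its size factors, total counts, no filter, a replicate block, summed Hspa1a and Hspa1b, 1 fit over all libraries, and each library left out. Libraries held 47570214 to 62297405 counts, and replicates differed by more than sampling noise (lowest mean chi-square per gene 13.2, noise 1). Members, gene lists and tests were chosen with earlier results of these data known. Named were 29 set members, plus up to 4 per direction and comparison with the largest changes among called, non-overlapping genes of at least 1 RPM, and up to 2 per companion list; others are named to complete a family or a group. Promoters came from RefSeq (GRCm38.p6), matched by symbol for 63 of 79 members. A few genes counted in these totals are not reported here by name.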

Additional observations from a re-analysis of the deposited data

Results flagged for a closer look

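For 25 named members, the effect of DEN in fibers differed from that in whole muscle by the test of the difference (edgeR quasi-likelihood, adjusted p under 0.05). On the log2 scale, the effect in fibers minus that in whole muscle was -2.56 for Hspa1b, -2.52 for Hspa1a, -2.50 for Hsp90aa1, -2.01 for Dnajb1, -1.71 for Hspb8, -1.67 for Dnaja1, -1.60 for Hspb1, -1.27 for Bag3, -1.25 for Hsph1 and -1.01 for Hspa2. It was -0.95 for Hspa1l, -0.94 for Hsp90ab1, -0.88 for Hspe1, -0.87 for Hspa8, -0.64 for Dnaja4, -0.62 for Hspd1, -0.61 for Dnajb9, -0.52 for Dnajb4, -0.46 for Hspb3, -0.46 for Dnajb6, -0.40 for Dnajc2 and -0.29 for Bag1. It was above 0 for Hspa12a (0.62), Dnajc16 (0.42) and Dnajc10 (0.38). The call of Bag1 ended in 15 of 16 fits that left out 1 library (adjusted p = 0.062 to 0.2).

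One library stood far from the other 3 of its group in 11 of 160 groups of 4 libraries, where chance gives about 1 in 20. In fibers these were Dnajb1 in DEN fibers 4 (217 normalised CPM, low) and Dnaja4 in sham fibers 1 (313, high). In DEN whole muscle, library 2 was low for Hspa9 (538) and Hsp90aa1 (89.4), and library 3 was high for Hspa2 (25.3) and Bag2 (14.9). In sham whole muscle, library 4 was high for Hspe1 (36.7), Dnajb9 (39.2) and Bag3 (165), library 1 was high for Hspa1l (31.2), and library 3 was high for Dnajc2 (29.6).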

How the results depend on the processing

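Scaling to total counts instead of TMM turned the direction of the following log2 fold changes of DEN over sham. In fibers these became 0.25 for Hspa8, 0.38 for Hspa9, 0.07 for Hsph1, 0.00 for Hspd1, 0.15 for Hspb1, 0.25 for Dnaja4, 0.15 for Dnajb4, 0.39 for Dnajc3, 0.48 for Dnajc7, 0.13 for Dnajb12, 0.48 for Dnajc10, 0.25 for Hsf1, 0.12 for Ptges3, 0.43 for Stub1, 0.20 for Pfdn4 and 0.24 for Clpp. In whole muscle they became 0.33 for Hspa9, 0.39 for Dnajb9, 0.12 for Dnajc3, 0.37 for Bag2, 0.40 for Dnajc14, 0.33 for Dnajc7, 0.36 for Hspa1l, 0.24 for Dnajb12, 0.20 for Dnajc16, 0.03 for Dnajc10, 0.33 for Hsf1, 0.26 for Stub1, 0.27 for Ubb, 0.29 for Clpp and 0.32 for Nr4a3. The same scaling gave 44 members higher and 13 lower in fibers (9950 and 1494 of all genes) and 59 higher and 7 lower in whole muscle (9983 and 2273 of all genes). For the difference of DEN effects it gave 5 members higher, and 1173 of all genes lower, against 1227 with no filter on low counts. With 1 library left out, members higher in that test ranged from 2 to 5 and all genes lower from 1244 to 2141. The same scaling called higher in DEN fibers Hspa5 (0.57), Hsp90ab1 (0.59), Hspb3 (0.59), Bag2 (0.63), Dnajc14 (0.57) and Flnc (1.09), and in DEN whole muscle Hspe1 (0.54) and Ddit3 (0.47), none of which passed with TMM. The cause was not tested. Of the values for single genes, 3290 of the fits that left out 1 library kept direction and side of the threshold, 131 lost and 35 gained a call. The count of members with opposite effects, added after seeing the data, was 12 with the DESeq2 Wald test and 8 with no filter. Replicate numbers were not used to pair the samples in the main tests. To look for pairing, the mean of its group was subtracted from the log2 CPM of each library, and these deviations were correlated over genes. By their deviations, DEN fibers 1, 2 and 3 correlated best with the sham fiber library of the same number, and DEN fibers 4 did not. In whole muscle only DEN library 3 did. Sham fibers 1, 2 and 4 and DEN fibers 1 and 4 correlated best with the same-numbered whole muscle library. Correlations between the deviations of same-numbered libraries, not between their levels, were -0.062 to 0.2604 between DEN and sham. Between fibers and whole muscle they were -0.065 to 0.2026. Whether a number marks a shared animal or batch was not tested. A replicate block gave 16 members higher and 32 lower in fibers, 34 and 18 in whole muscle, 28 and 18 in fibers against whole muscle after sham, 28 and 24 after DEN, and 3 and 27 for the difference. With the block, Hspa8 (adjusted p = 0.044) and Dnaja4 (0.046) passed in fibers, and Hsf1 (0.081) and Dnajc7 (0.1) did not in whole muscle.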
